A study of Mus musculus with 12 samples.

Results

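The receptors that let a leukocyte sense complement fragments, lipid chemoattractants, bacterial peptides and histamine were followed across 3 subsets of eosinophils sorted from the mouse small intestine. The set held 8 genes, taken by their symbols from a table of 36047 gene identifiers: C3ar1, C5ar1, C5ar2, Ltb4r1, Ptafr, Fpr1, Fpr2 and Hrh4. Eosinophils of the proximal small intestine (SI) lamina propria, gated as live CD45+ CD11b+ SiglecF+ MHCII- Ly6G- cells, were divided by surface staining for the integrin a4b7 and for CD22, an inhibitory sialic acid-binding receptor, into a4b7+, a4b7- CD22- and CD22+ cells. The 12 libraries, 4 for each subset, came from wild type C57BL/6J mice that the labels give as female, with no treatment, and each library pooled the cells of 2 mice. The study sorted these subsets to ask how eosinophils change as they settle in the SI. The gate selects eosinophils by surface proteins and can retain other cells that carry the same proteins. With libraries made from bulk RNA, fewer cells of a type and less RNA per cell cannot be told apart.

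All of these genes encode membrane-spanning receptors of the rhodopsin family. Complement activation at a surface releases the small peptides C3a and C5a. C3ar1 is the receptor for C3a, C5ar1 is the signaling receptor for C5a that drives chemotaxis, and C5ar2 binds C5a without coupling to G proteins, recruiting arrestins instead. Ltb4r1 encodes the high-affinity receptor for leukotriene B4 and Ptafr the receptor for platelet-activating factor (PAF), both lipids made by activated leukocytes. Fpr1 and Fpr2 recognize formylated peptides from bacteria and mitochondria, and Fpr2 also binds serum amyloid A and annexin A1. Hrh4 is the histamine receptor best known from mast cells and eosinophils. Apart from C5ar2, these receptors can signal through pertussis toxin-sensitive Gi proteins, and regulator of G protein signaling (RGS) proteins shorten that signal.

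To set the genes in their genomic context, the 250 bases before the RefSeq start site (GRCm38.p6) of the 5 receptors with enough signal to be compared are given 5′ to 3′ on the strand of the gene, with matches to 7 short motifs in capitals. They are shown because 4 of these receptors differed between subsets and Ptafr did not pass the test anywhere. The C3ar1 window is chr6:122856158-122856407 (minus strand), the C5ar1 window chr7:16259339-16259588 (minus strand), the C5ar2 window chr7:16244155-16244404 (minus strand), the Ltb4r1 window chr14:55765712-55765961 (plus strand) and the Ptafr window chr4:132563817-132564066 (plus strand).
C3ar1: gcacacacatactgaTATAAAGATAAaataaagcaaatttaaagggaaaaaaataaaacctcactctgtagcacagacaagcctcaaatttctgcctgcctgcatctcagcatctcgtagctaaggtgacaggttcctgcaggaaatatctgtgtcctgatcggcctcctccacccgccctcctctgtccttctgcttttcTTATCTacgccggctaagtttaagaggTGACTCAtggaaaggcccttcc
C5ar1: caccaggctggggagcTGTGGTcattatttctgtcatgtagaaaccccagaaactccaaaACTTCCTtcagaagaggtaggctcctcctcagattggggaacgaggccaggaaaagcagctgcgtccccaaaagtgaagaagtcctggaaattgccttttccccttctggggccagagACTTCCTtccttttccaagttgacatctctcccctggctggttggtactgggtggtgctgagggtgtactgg
C5ar2: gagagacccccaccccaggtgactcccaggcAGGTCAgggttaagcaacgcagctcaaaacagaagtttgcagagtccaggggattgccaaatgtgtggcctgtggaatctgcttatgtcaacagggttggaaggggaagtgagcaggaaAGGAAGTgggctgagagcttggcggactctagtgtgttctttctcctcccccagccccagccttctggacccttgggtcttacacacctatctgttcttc
Ltb4r1: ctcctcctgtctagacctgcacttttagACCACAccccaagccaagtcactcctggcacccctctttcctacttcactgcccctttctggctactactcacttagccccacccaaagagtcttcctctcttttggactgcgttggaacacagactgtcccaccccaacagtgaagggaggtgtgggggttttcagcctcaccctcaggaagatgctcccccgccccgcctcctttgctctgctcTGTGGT
Ptafr: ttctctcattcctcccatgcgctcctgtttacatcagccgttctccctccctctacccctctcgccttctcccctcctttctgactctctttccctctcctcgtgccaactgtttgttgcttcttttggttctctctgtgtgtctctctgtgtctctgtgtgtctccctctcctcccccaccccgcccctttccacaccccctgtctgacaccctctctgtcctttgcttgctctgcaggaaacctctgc
Both strands were searched, so a match on the opposite strand stands here as its reverse complement. The C3ar1 window held a TATA box (TATAAA) and a GATA motif (AGATAA) that overlap, a further GATA motif on the opposite strand, and an AP-1 motif (TGANTCA) 22 bases before the start. The C5ar1 window held the ETS motif bound by PU.1 (AGGAAGT) at 190 and 72 bases before the start and a RUNX motif (TGTGGT). In the C5ar2 window lay 1 ETS motif and 1 nuclear receptor half-site (AGGTCA), and in the Ltb4r1 window 2 RUNX motifs. The Ptafr window held none of the 7, which included the E-box CACGTG. Of 32851 windows of this length in the annotation, TATAAA was present in 12.4%, AGGAAGT in 7.69%, AGATAA in 9.99%, TGANTCA in 6.75%, AGGTCA in 14%, CACGTG in 6.02% and TGTGGT in 14%. No motif was shared by C3ar1 and C5ar1, the receptors with the largest differences. The RefSeq start of C5ar1 lies 202 bases downstream of the start in the GENCODE annotation, so most of its window, with both ETS motifs, lies within the GENCODE gene. C5ar2 has a further RefSeq start whose window held no match.

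Values below are normalized counts, which are reads per gene after scaling between libraries. They summed to 14286474 to 16915755 per library, and 1 read was worth about 0.85 to 1.16 of them, so that 3 reads, used here as the limit of detection, corresponded to 2.55 to 3.48. The sort was visible in the RNA. Itgb7, the integrin chain that separates a4b7+ cells, averaged 2526 ± 519.7 (SD, n = 4) in a4b7+, 220.4 ± 81.0 in a4b7- CD22- and 156 ± 86.5 in CD22+ libraries, while Cd22 averaged 1115 ± 175, 4462 ± 934 and 13334 ± 1588 in the same order. The partner chain Itga4 stayed abundant in all (37469 ± 3187, 29433 ± 908 and 26876 ± 1173), and all 6 eosinophil markers were detected in every subset. A gene was called different between subsets when its Benjamini-Hochberg adjusted p in limma was at most 0.05 over the 15249 genes with a mean above 10 and its fold change was at least 1.5. All fold changes are on the log2(normalized count + 1) scale.

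Of the 8 receptors, 5 passed the filter on low values and were tested. Signal from C3ar1, C5ar1 and C5ar2 was lower in both other subsets than in a4b7+ cells, Ltb4r1 fell in CD22+ cells, and Ptafr did not pass the test. Fpr1 and Hrh4 were at or near the limit of detection, and Fpr2 was low, with a mean under 10 over all libraries. Between a4b7- CD22- and a4b7+ cells, 3 of the 5 tested receptors were called, all lower, where 8.05% of all tested genes were called, 4.35% lower and 3.7% higher. The same 3 were lower with no overlap between libraries, as were 9.8% of tested genes. Between CD22+ and a4b7+ cells, 4 of 5 were called, all lower, where 12.0% of tested genes were called, 6.39% lower and 5.6% higher. The same 4 did not overlap between libraries, as was the case for 11.8% of tested genes on the lower side. The count was 2 of 5 with libraries set to equal totals or without a4b7+ replicate 1, when C5ar2 and Ltb4r1 were lost. Between CD22+ and a4b7- CD22- cells limma called 0 of 5, where 0.603% of tested genes were called (0.393% lower and 0.21% higher), and 1 receptor, Ltb4r1, had an unadjusted p under 0.05. The first 2 comparisons share the a4b7+ libraries and are not independent of each other. The median difference of the 5 receptors was -1.36, -0.91 and 0.10 on the log2 scale in the 3 comparisons, against 0.003, 0.014 and -0.001 over all tested genes.

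**Figure D1:**
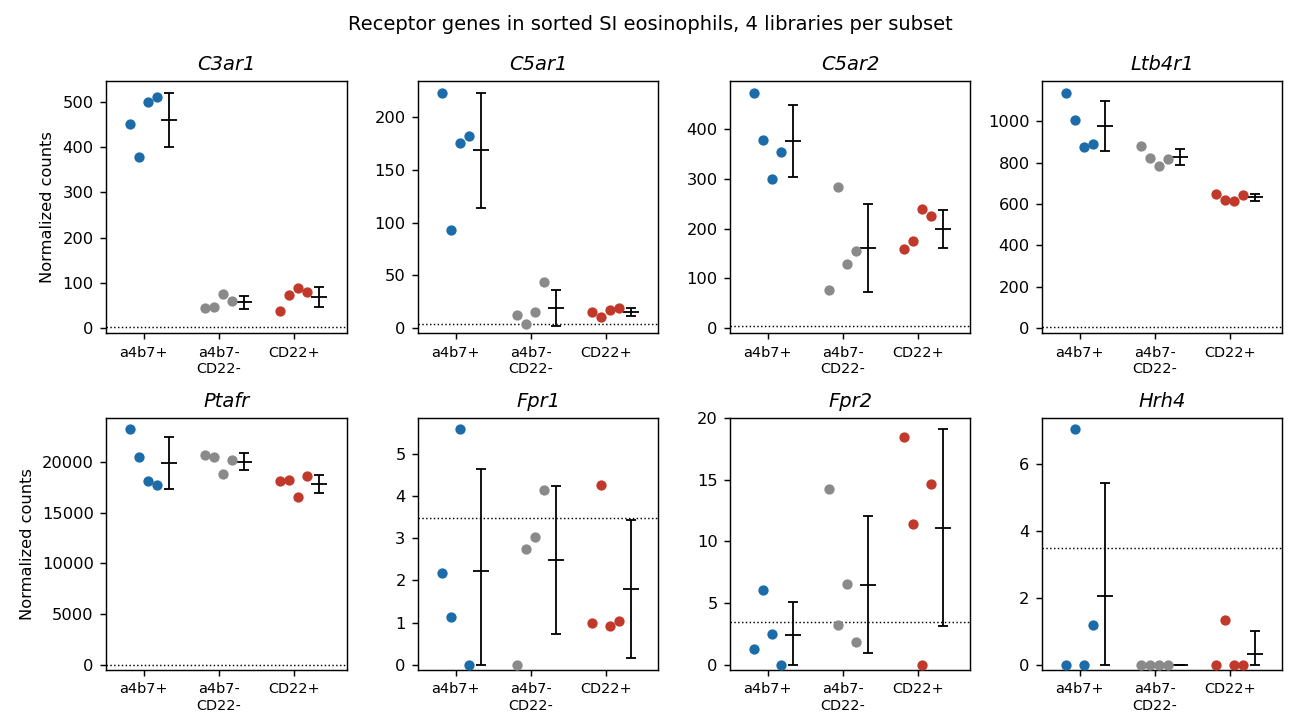
Normalized counts of the 8 receptor genes (vertical axis, a separate linear scale for each gene) in the 12 libraries, by subset. Each point is 1 library in order of its replicate number, the black bars show the mean ± SD of 4 libraries with the lower end stopped at 0, and the dotted line marks 3.48, the highest value of 3 reads in any library. C3ar1 and C5ar1 separate a4b7+ cells from both other subsets, whereas Ptafr lies between 16542 and 23187 throughout.

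C3ar1, the C3a receptor (chr6:122847138-122856161, minus strand), was the most clearly divided. It read 451, 379, 500.5 and 511 in the 4 a4b7+ libraries, 45.3, 46.7, 76.3 and 59.7 in the a4b7- CD22- libraries, and 38.2, 73.2, 89.3 and 78.7 in the CD22+ libraries. Every a4b7+ library stood above every other library, and the ranges of the a4b7- CD22- and CD22+ subsets overlapped. The fitted level was 8.08-fold lower in a4b7- CD22- than in a4b7+ cells (log2 difference -3.01, SE 0.253, adjusted p = 1.72e-06) and 6.78-fold lower in CD22+ cells (-2.76, SE 0.253, adjusted p = 1.57e-06). Of the tested genes, 0.23% had a lower log2 difference than C3ar1 in the first comparison and 0.38% in the second. Between CD22+ and a4b7- CD22- cells C3ar1 differed by 0.25 (95% CI -0.29 to 0.79, adjusted p = 0.848). Nearly all of the C3ar1 transcript is unique: 2.67% of its bases lie in stretches of at least 50 bases with at least 90% identity to transcripts of other genes.

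C5ar1, the signaling receptor for C5a (chr7:16246743-16259540, minus strand), was likewise highest in a4b7+ cells, at a lower level. In a4b7+ cells it read 223, 93.0, 176 and 182. The a4b7- CD22- libraries read 12.8, 3.76, 15.4 and 44.2, and the CD22+ libraries 15.0, 10.5, 16.7 and 18.8. The lowest a4b7+ library was above the highest of the other 8, but the a4b7- CD22- libraries were widely spread (mean 19.0 ± 17.5), and their lowest value was only just above the level of 3 reads. C5ar1 was 10.9-fold lower in a4b7- CD22- (log2 difference -3.44, SE 0.529, adjusted p = 0.000424) and 10.2-fold lower in CD22+ cells (-3.34, SE 0.529, adjusted p = 0.00031) than in a4b7+ cells. The standard error was over that of C3ar1, and the 95% intervals reached from -4.58 to -2.31 and from -4.48 to -2.21. The a4b7- CD22- and CD22+ subsets differed by 0.10 (95% CI -1.03 to 1.23, adjusted p = 0.979), an interval that leaves room for a change of either sign. No stretch of the C5ar1 transcript matched another gene.

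C5ar2, the non-G-protein-coupled C5a receptor and the chromosomal neighbor of C5ar1 (chr7:16234585-16244154, minus strand), showed a smaller difference. It read 473, 378, 299 and 353 in a4b7+, 76.4, 284, 128 and 154 in a4b7- CD22-, and 159, 174, 239 and 225 in CD22+ libraries. The a4b7+ libraries lay above all others, though replicate 2 of the a4b7- CD22- subset came close to the lowest of them. C5ar2 was 2.57-fold lower in a4b7- CD22- (log2 difference -1.36, SE 0.299, adjusted p = 0.00633) and 1.88-fold lower in CD22+ cells (-0.91, SE 0.299, adjusted p = 0.0424), while CD22+ and a4b7- CD22- cells differed by 0.45 (95% CI -0.19 to 1.09, adjusted p = 0.726). The call between CD22+ and a4b7+ cells was lost, with the same sign, in 8 of the 12 fits that left out 1 library, those without a4b7+ replicates 1, 2 or 4, a4b7- CD22- replicates 3 or 4, or CD22+ replicates 1, 2 or 4 (log2 difference -0.98 to -0.79, adjusted p 0.0516 to 0.114). The call between a4b7- CD22- and a4b7+ cells was kept in all 12.

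The C5ar2 values also moved with a highly abundant row of the table. Tmem38b, which encodes an endoplasmic reticulum ion channel and whose locus contains the 5S ribosomal RNA gene n-R5s185, was the second most abundant row and took 0.32% to 2.57% of a library's total. Tmem38b read 351807, 421208, 226026 and 271376 in a4b7+ libraries, 48270, 273617, 143289 and 143592 in a4b7- CD22- libraries, and 116428, 135572, 221381 and 227891 in CD22+ libraries. Its log2 level correlated with that of C5ar2 with r = 0.95 over the 12 libraries and r = 0.94 after the subset means were removed, against 0.27 for C3ar1, -0.25 for C5ar1, -0.01 for Ltb4r1 and 0.10 for Ptafr within subsets. Tmem38b was not the closest partner of C5ar2: P4hb, a coding gene for a protein disulfide isomerase at 0.0281% to 0.0406% of a library, correlated with it at r = 0.98 both over all libraries and within subsets. The log2 difference between C5ar2 and Tmem38b was -9.70 ± 0.28 in a4b7+, -9.79 ± 0.36 in a4b7- CD22- and -9.73 ± 0.22 in CD22+ cells (SD, n = 4), so that the level of C5ar2 relative to Tmem38b differed between subsets by less than the spread of the libraries. Tmem38b itself was called lower in a4b7- CD22- than in a4b7+ cells (-1.27, SE 0.396, adjusted p = 0.0443) and read -0.88 in CD22+ cells (adjusted p = 0.141). P4hb read -0.40 and -0.30 in the same comparisons and was called in neither. C5ar2 also shares sequence with other genes: 127 of its 3561 exon bases belong as well to the small nuclear RNA gene Gm26473 on the same strand, and 11.8% of its transcript matches stretches of 1745 other genes. The part of these shared sequences and of the abundant row in the C5ar2 differences was not tested.

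**Figure D2:**
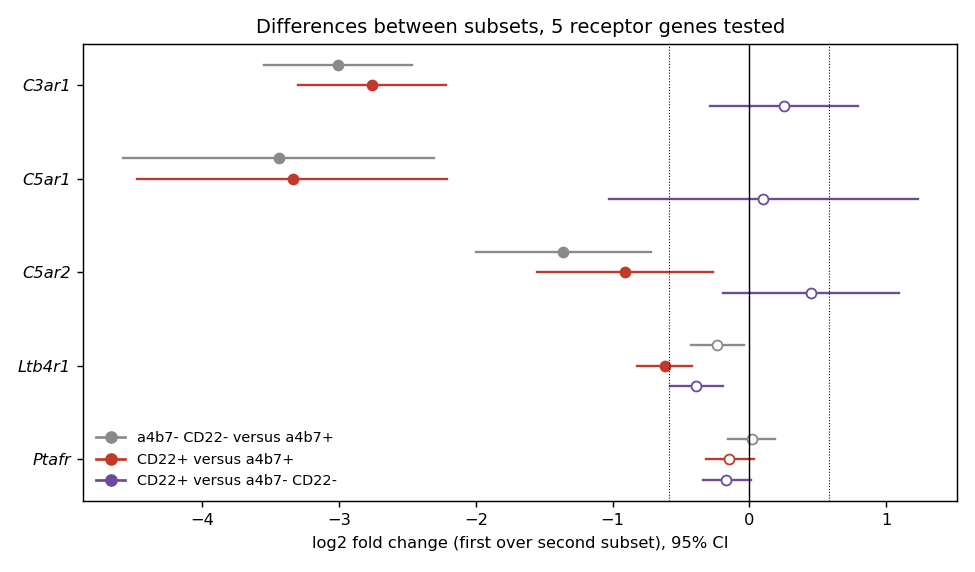
Differences between subsets for the 5 receptor genes tested, as log2 fold change of the first subset over the second (horizontal axis) with 95% confidence intervals from limma. Filled points passed both thresholds, open points did not, and dotted lines mark a 1.5-fold change in either direction. C3ar1 and C5ar1 lie near -3 in both comparisons with a4b7+ cells, and Ptafr lies at 0.02 and -0.15.

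Because both C5a receptors bind the same peptide, the ratio of C5ar2 to C5ar1 was compared within each library. The log2 ratio was 1.08, 2.01, 0.76 and 0.95 in a4b7+ libraries, 2.49, 5.90, 2.98 and 1.78 in a4b7- CD22- libraries, and 3.33, 3.93, 3.76 and 3.51 in CD22+ libraries. All CD22+ libraries were above all a4b7+ libraries, whereas a4b7- CD22- replicate 4 fell within the a4b7+ range. The mean ratio was 2.43 higher on the log2 scale in CD22+ than in a4b7+ cells (two-sided exact permutation p = 0.0286, the smallest that 4 against 4 libraries can give). It was 2.09 higher in a4b7- CD22- cells (exact permutation p = 0.0571), with a range of 1.21 to 2.59 when 1 library was left out. Neither passed after adjustment over the 9 ratio tests (both adjusted p = 0.257). With 0.0286 as the smallest p, a difference in this ratio alone could not have passed, so the adjusted result cannot decide whether the ratio changed. Per kilobase of exon, C5ar2 made up 62.1% ± 8.59 of the summed C5a receptor signal in a4b7+, 84.2% ± 11.1 in a4b7- CD22- and 90.4% ± 1.69 in CD22+ cells (SD, n = 4). Since C5ar2 carries the limits given above, these shares carry them too. C3ar1 and C5ar1 did not separate in the same way: their log2 ratio was 1.5 ± 0.41 in a4b7+, 1.93 ± 1.20 in a4b7- CD22- and 2.09 ± 0.60 in CD22+ cells, and the exact permutation p of the 3 comparisons was 0.2 or higher.

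**Figure D3:**
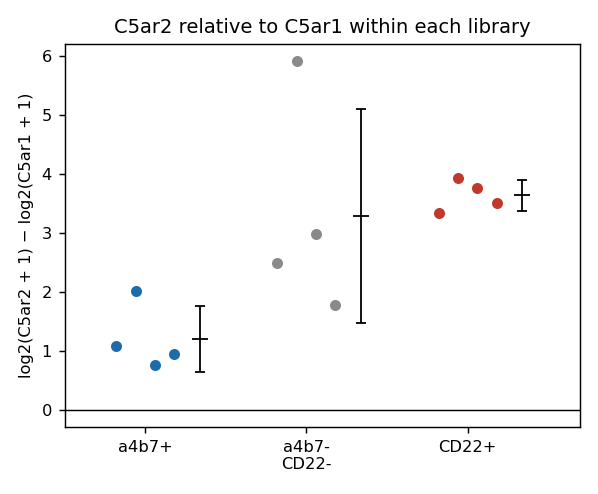
The log2 ratio of C5ar2 to C5ar1, computed as log2(C5ar2 + 1) minus log2(C5ar1 + 1) in each library (vertical axis), by subset. Points are libraries in order of replicate number and black bars the mean ± SD of 4 libraries. CD22+ libraries lie between 3.33 and 3.93, above all a4b7+ libraries, and a4b7- CD22- replicate 2 reaches 5.90.

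Ltb4r1, the high-affinity leukotriene B4 receptor (chr14:55765962-55768494, plus strand), declined by smaller steps. It read 1139, 1009, 877 and 889.5 in a4b7+, 880.3, 823.5, 785 and 819.9 in a4b7- CD22-, and 651, 619, 615 and 646 in CD22+ libraries. The CD22+ libraries were the lowest 4 of the 12 and did not overlap with either other subset, whereas a4b7- CD22- replicate 1 lay within the a4b7+ range. Between CD22+ and a4b7+ cells Ltb4r1 fell 1.54-fold (log2 difference -0.62, SE 0.092, adjusted p = 0.000178), close to the fold threshold, and it read -0.55 without a4b7+ replicate 1, which is below that threshold (adjusted p = 0.000577). Between CD22+ and a4b7- CD22- cells the difference was -0.39 (95% CI -0.58 to -0.19, adjusted p = 0.0689), and between a4b7- CD22- and a4b7+ cells -0.24 (95% CI -0.43 to -0.04, adjusted p = 0.109), neither of which was called. For reference, in the comparison of CD22+ with a4b7- CD22- cells 3.72% of tested genes were lower with no overlap between libraries. Ltb4r2, the low-affinity leukotriene B4 receptor, averaged 123, 145 and 145 in the 3 subsets and was not called (log2 difference from a4b7+ 0.34 and 0.36, adjusted p = 0.512 and 0.452).

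Ptafr, the PAF receptor (chr4:132564067-132582683, plus strand), was by far the most abundant of the receptors. It read 23187, 20504, 18124 and 17669 in a4b7+, 20626, 20471, 18786 and 20153 in a4b7- CD22-, and 18106, 18178, 16542 and 18578 in CD22+ libraries. The a4b7+ libraries overlapped with both other subsets, and the 4 CD22+ libraries lay below the 4 a4b7- CD22- libraries without overlap. The log2 difference was 0.02 between a4b7- CD22- and a4b7+ cells (95% CI -0.16 to 0.19, adjusted p = 0.925), -0.15 between CD22+ and a4b7+ cells (95% CI -0.32 to 0.03, adjusted p = 0.235) and -0.17 between CD22+ and a4b7- CD22- cells (95% CI -0.34 to 0.01, adjusted p = 0.55). All 3 intervals lie within a 1.5-fold change in either direction. Within subsets Ptafr and Ltb4r1 varied together across libraries (r = 0.94 over 12 libraries with subset means removed), while the correlation of C3ar1 with C5ar1, which is 0.91 over all libraries, was 0.33 within subsets. These correlations are descriptions, since the libraries share their sort, depth and scaling.

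Compared per kilobase of exon, Ptafr ranked 97 of 15242 tested genes with a mean of 5291 normalized counts per kilobase over the 12 libraries, and Ltb4r1 ranked 1164 with 583. In a4b7+ cells C3ar1 (107 ± 13.96 normalized counts per kilobase) and C5ar2 (105.5 ± 20.4) were level within their spread, and C5ar1 (65.6 ± 21.2) followed. In CD22+ cells the order was C5ar2 (56.0 ± 10.8), C3ar1 (16.2 ± 5.14) and C5ar1 (5.93 ± 1.38), the last of which was within the spread of Fpr2 (8.59 ± 6.14) per kilobase. In a4b7- CD22- cells C5ar2 (45.1 ± 24.8) again led C3ar1 (13.2 ± 3.34) and C5ar1 (7.40 ± 6.81), and the latter pair overlapped.

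The formyl peptide receptors were low, Fpr1 more so than Fpr2. Fpr1 (chr17:17876471-17883940, minus strand) read 2.17, 1.13, 5.57 and 0 in a4b7+, 0, 2.74, 3.03 and 4.14 in a4b7- CD22-, and 0.985, 4.25, 0.928 and 1.04 in CD22+ libraries, with 7 of the 12 at or under 3 reads. Fpr2 (chr17:17887824-17893952, plus strand) read 1.29, 6.04, 2.48 and 0 in a4b7+, 14.3, 3.26, 6.58 and 1.85 in a4b7- CD22-, and 18.4, 11.4, 0 and 14.6 in CD22+ libraries. It was above 3 reads in 7 of the 12 libraries, and 3 of the CD22+ values were in the range of C5ar1 in the same subset. The subsets overlapped, since 1 CD22+ library was at 0 and 1 a4b7- CD22- library was among the highest. Both genes had a mean of 10 or less and were outside the test. In a fit with no filter, Fpr2 differed by 1.52 between CD22+ and a4b7+ cells (SE 0.933, adjusted p = 0.424) and Fpr1 by -0.03 (SE 0.681, adjusted p = 1.0). The log2 ratio of Fpr2 to Fpr1 gave differences of 0.96, 1.55 and 0.59 (exact permutation p = 0.514, 0.257 and 0.714), but with so few reads of Fpr1 it is set largely by the pseudocount and the test is uninformative. Fpr2 is also hard to count: 91.9% of its transcript is shared with other genes, mostly with the pseudogene Gm5966 at 95.7% identity, and 48 exon bases are shared with Fpr3. Gm5966 and Fpr3 are both listed at 0 in all 12 libraries.

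Hrh4 (chr18:13006990-13022882, plus strand), the histamine receptor named in eosinophil chemotaxis, read 0, 7.03, 0 and 1.20 in a4b7+ libraries, 0 in all 4 a4b7- CD22- libraries, and 0, 1.35, 0 and 0 in CD22+ libraries. Only a4b7+ replicate 2 was above 3 reads. The gene was outside the test, and with no filter it was not called between a4b7- CD22- and a4b7+ cells (log2 difference -1.04, SE 0.549, adjusted p = 0.372). At this depth no difference in Hrh4 was detectable between subsets. The other receptors with a histamine or chemoattractant ligand were taken from a list of 12 related genes, of which 4 had a mean above 10. Hrh2, the Gs-coupled histamine receptor, was the histamine receptor with a testable level: it read 151, 129.6, 110.5 and 120.0 in a4b7+, 87.7, 74.1, 56.0 and 74.4 in a4b7- CD22-, and 80.1, 71.6, 41.3 and 56.3 in CD22+ libraries. Hrh2 was lower in a4b7- CD22- (log2 difference -0.81, SE 0.230, adjusted p = 0.0287) and in CD22+ cells (-1.06, SE 0.230, adjusted p = 0.0039). The first call was lost, at the same sign, in 6 of 12 fits that left out 1 library (a4b7+ replicates 1, 2 or 4, or a4b7- CD22- replicates 2, 3 or 4, adjusted p 0.0511 to 0.0859) and with no filter (adjusted p = 0.0501).

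Among these related receptors 2 of the 4 tested were lower in a4b7- CD22- and 3 in CD22+ than in a4b7+ cells, where 4.35% and 6.39% of all tested genes were lower, and none was higher. The median log2 difference was -0.65, -0.91 and -0.12 in the 3 comparisons. Besides Hrh2 these were Cmklr1, the receptor for the chemoattractant chemerin, and Ccrl2, which binds chemerin without signaling. Cmklr1 averaged 104 ± 33.3, 38.1 ± 22.6 and 45.4 ± 9.59 in a4b7+, a4b7- CD22- and CD22+ cells, with differences from a4b7+ of -1.53 (adjusted p = 0.0145) and -1.13 (adjusted p = 0.0498). The second was lost in 9 of the 12 fits that left out 1 library, all but those without a4b7+ replicate 2 or a4b7- CD22- replicates 3 or 4 (adjusted p up to 0.133). It was also lost with a pseudocount of 0.1, no filter, rescaling to the 75th percentile, equal totals or no trend (adjusted p 0.052 to 0.0828). Ccrl2, an abundant gene at 10638 ± 988, 7586 ± 583 and 6243 ± 556, fell in CD22+ cells (-0.77, SE 0.085, adjusted p = 9.99e-06) and read -0.49 in a4b7- CD22- cells, below the fold threshold.

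Of the genes that make or break down the ligands, 17 of 19 were tested. In a4b7- CD22- cells 3 were higher and 0 were lower than in a4b7+ cells, in CD22+ cells 3 were higher and 5 lower, where 3.7% and 5.6% of all tested genes were higher and 4.35% and 6.39% lower in the 2 comparisons, and limma called none between CD22+ and a4b7- CD22- cells, where 8 had an unadjusted p under 0.05, 1 of them higher. Lpcat1, an acyltransferase that can make PAF, rose from 286 ± 40.8 in a4b7+ to 599.7 ± 115 in a4b7- CD22- and 702 ± 163 in CD22+ cells (log2 differences 1.06 and 1.27, adjusted p = 0.000813 and 9.06e-05). Hnmt, the enzyme that inactivates histamine by methylation, rose from 83.1 ± 18.2 to 143 ± 15.1 and 161 ± 5.54 (0.80 and 0.97, adjusted p = 0.00757 and 0.00117). Saa3, a serum amyloid A protein and so a possible Fpr2 ligand, rose from 498 ± 138 to 941 ± 180.5 and 778 ± 105 (0.94 and 0.68, adjusted p = 0.00324 and 0.018), and the second call was lost without a4b7+ replicates 1 or 2 or CD22+ replicate 1 (adjusted p 0.0534 to 0.0582). Alox5ap, the protein that presents arachidonic acid to 5-lipoxygenase for leukotriene synthesis, fell from 5037 ± 531 in a4b7+ to 2729 ± 295 in CD22+ cells (-0.88, adjusted p = 9.74e-06). It read 3523 ± 309 in a4b7- CD22- cells (-0.51, below the fold threshold), where it was called only without a4b7+ replicate 4 (-0.59). Anxa1, the Fpr2 ligand annexin A1, fell from 70.5 ± 19.3 to 30.0 ± 16.3 in CD22+ cells (-1.36, adjusted p = 0.035), a call lost without a4b7+ replicates 2 or 4 or CD22+ replicates 1 or 3 (adjusted p 0.08 to 0.0938), with no filter (0.0612) or with no trend (0.0517). The others that fell in CD22+ cells were Pla2g4a, the phospholipase that releases arachidonic acid, Cyp4f18, which hydroxylates leukotriene B4, and Lpcat2, the inducible PAF-forming acyltransferase, with differences of -0.68, -0.66 and -0.60 (adjusted p = 0.000272, 1.34e-05 and 2.46e-05). With equal totals none of these 3 reached 1.5-fold. The Cyp4f18 call was also lost with quantile normalization, and the Lpcat2 call with quantile normalization, rescaling to the 75th percentile, or without a4b7+ replicate 1 or CD22+ replicate 3 (-0.64 to -0.44 over the 22 alternatives).

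Among complement components and regulators, 11 of 15 were tested, 2 were lower in a4b7- CD22- and 2 in CD22+ than in a4b7+ cells, against 4.35% and 6.39% of all tested genes, and 0 were higher. Cd55, which protects cells by speeding the decay of the C3 convertase, fell from 487.5 ± 41.2 in a4b7+ to 208 ± 14.4 and 184 ± 59.4 (log2 differences -1.23 and -1.45, adjusted p = 0.000236 and 2.54e-05). Cfp, properdin, averaged 107 ± 4.36, 53.7 ± 24.0 and 58.3 ± 22.7, with differences of -1.11 (adjusted p = 0.039) and -0.94 (adjusted p = 0.0641, not called). C4b, a component of the classical pathway, was called between CD22+ and a4b7+ cells with a difference of -0.59 (adjusted p = 0.0486) on 883 ± 201 and 587 ± 130. Each of these last 2 calls was lost in 7 of the 12 fits that left out 1 library: Cfp in a4b7- CD22- cells without any of the a4b7+ replicates or without a4b7- CD22- replicates 1, 2 or 3 (adjusted p up to 0.103), and C4b without a4b7+ replicates 2, 3 or 4, a4b7- CD22- replicates 1 or 3, or CD22+ replicates 1 or 3 (adjusted p up to 0.142). The Cfp call was also lost with no filter, equal totals or no trend (adjusted p 0.057 to 0.0636), and the C4b call with either other pseudocount, no filter, each other scaling, no trend or only the 2 subsets compared, in all 15 of 22 alternatives. Between CD22+ and a4b7+ cells Cfp was called in 6 of the 22 alternatives: with a replicate block (adjusted p = 0.0416), quantile normalization (0.0467) or only the 2 subsets compared (0.0277), and without a4b7- CD22- replicates 2 or 4 or CD22+ replicate 4 (0.0213 to 0.0486).

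Of 21 G proteins and effectors downstream of these receptors, all tested, limma called 0 between a4b7- CD22- and a4b7+ cells, where 2 higher and 7 lower had an unadjusted p under 0.05. Between CD22+ and a4b7+ cells 1 was called lower, a share near the 6.39% of all tested genes. In that comparison 2 higher and 13 lower had an unadjusted p under 0.05 and 18 of the 21 estimates were below 0. Their median was -0.21, against 0.014 over all tested genes. By adjusted p alone, 1532 of the 15249 tested genes were higher and 1691 lower. With equal totals the median over all tested genes was 0.171, and the list was not summarized at that setting. Gnai2 and Gnai3, the Gi subunits, were among the 13 lower genes, with small differences of -0.51 and -0.48 (adjusted p = 2.07e-05 and 0.000203), below the fold threshold. Between CD22+ and a4b7- CD22- cells limma called 0, where 5 had an unadjusted p under 0.05, all lower. The gene called between CD22+ and a4b7+ cells was Prkcd, a diacylglycerol-activated protein kinase, at 3061 ± 167 and 5229 ± 460 (-0.77, adjusted p = 2.21e-06). Between a4b7- CD22- and a4b7+ cells Prkcd was called only without a4b7+ replicate 2 (-0.62) or a4b7- CD22- replicate 1 (-0.58). The receptor kinases, arrestins and RGS proteins moved in both directions. Of 13 tested genes of 14, 2 were higher and 1 lower in a4b7- CD22- cells, 3 higher and 2 lower in CD22+ cells, both against a4b7+ cells, and 1 was lower between CD22+ and a4b7- CD22- cells. Of all tested genes 3.7%, 5.6% and 0.21% were higher and 4.35%, 6.39% and 0.393% lower in these comparisons. Rgs1, an RGS protein that limits chemoattractant signaling, rose from 24768 ± 3105 in a4b7+ to 73790 ± 7764 in a4b7- CD22- and 72608 ± 12683 in CD22+ cells (log2 differences 1.58 and 1.54, adjusted p = 8.53e-07 and 4.22e-07). Rgs10 rose from 651 ± 113 to 1129 ± 63.8 and 1236 ± 169 (0.81 and 0.93), and the receptor kinase Grk3 rose from 276 ± 27.8 to 511 ± 70.1 in CD22+ cells (0.88, adjusted p = 0.00019). Between a4b7- CD22- and a4b7+ cells Grk3 was called only with equal totals (0.62) or without a4b7- CD22- replicate 2 (0.61). Rgs18 fell at each step, from 1096 ± 169 to 599 ± 71.8 and 324.5 ± 53.8. Its differences were -0.86 and -1.75 from a4b7+ cells, and the drop of 0.89 between a4b7- CD22- and CD22+ cells was also called (-0.89, adjusted p = 0.00512). Rgs19 fell from 2635 ± 98.0 to 1646 ± 150 in CD22+ cells (-0.68, adjusted p = 1.8e-05), a call lost with libraries set to equal totals (-0.52, below 1.5-fold).

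**Figure D4:**
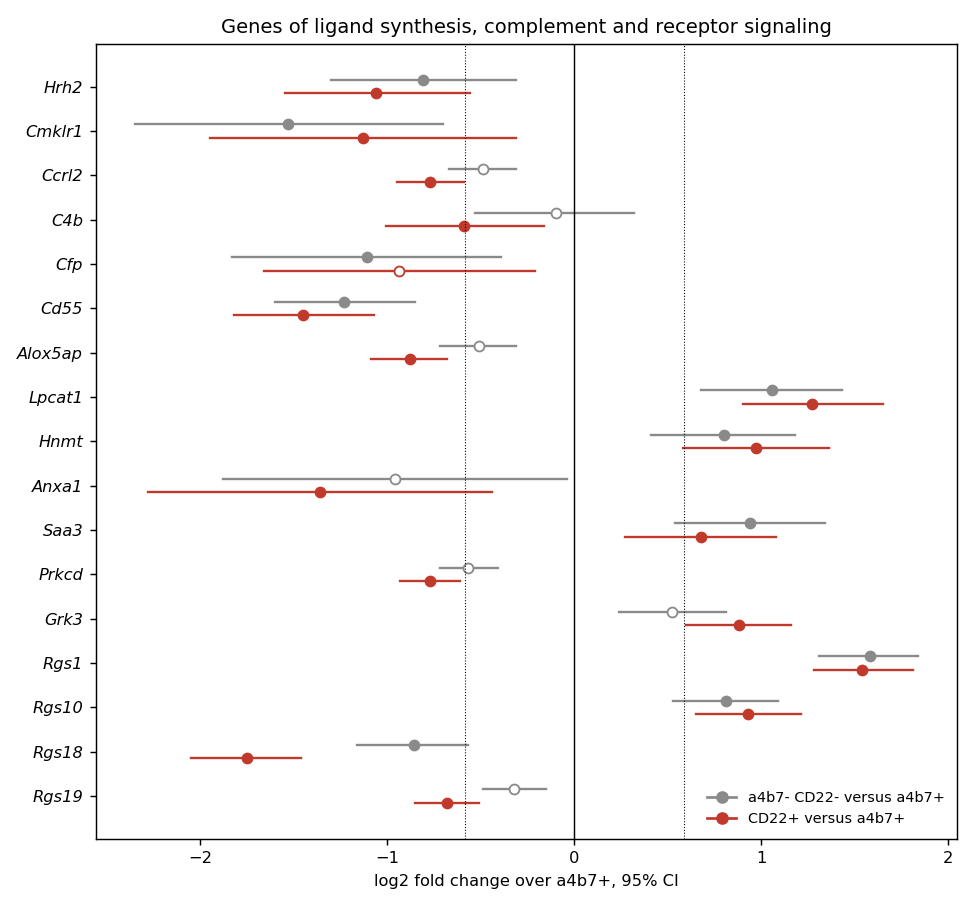
Log2 fold change over a4b7+ cells (horizontal axis), with 95% confidence intervals from limma, of the listed genes of related receptors, complement, ligand metabolism and receptor signaling, in a4b7- CD22- cells (grey) and CD22+ cells (red). Filled points passed both thresholds and dotted lines mark a 1.5-fold change. Rgs1, Rgs10, Lpcat1, Hnmt and Saa3 lie on the higher side in both comparisons, and Rgs18 has the lowest value, -1.75, in CD22+ cells.

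The genes whose levels followed each receptor most closely over the 12 libraries were taken from 9464 or 9465 genes with a mean of at least 100 and are given as a description, since all libraries share 1 sort and the subset differences enter each value. For C3ar1 they were Spn (Pearson r = 0.968), Padi4 (0.967) and Rarg (0.966), and for C5ar1 they were Naa50 (0.964), Tuba1a (0.958) and Bop1 (0.957). For C5ar2 they were P4hb (0.976), Tmem38b (0.951) and Slc26a3 (0.946). Ltb4r1 was followed by Junb (0.972), Pbld1 (0.971) and Cyp4f18 (0.958). Ptafr, which varied least, had lower values, with Cradd at 0.888, Anxa6 at 0.883 and Ube2k at 0.876.

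C3ar1, C5ar1 and Fpr genes are also expressed by neutrophils, monocytes and macrophages, so the marker levels of those cells are given beside these results. Of 10 monocyte and macrophage markers limma called none in any comparison, and their summed level was 2742 to 3361 in a4b7+, 2294 to 3072 in a4b7- CD22- and 2021 to 3831 in CD22+ libraries, ranges that overlap. An unadjusted p under 0.05 was seen for 1, 2 and 1 of these 10 in the 3 comparisons. The summed level of 10 neutrophil markers was higher in a4b7+ libraries (15170 to 22918) than in a4b7- CD22- (7362 to 9398) and CD22+ libraries (4753 to 5169). Of the 6 with a mean above 10, limma called 2 higher and 1 lower in a4b7- CD22- cells and 2 higher and 3 lower in CD22+ cells, both against a4b7+ cells, where 3.7% and 5.6% of all tested genes were higher and 4.35% and 6.39% lower. Most of the sum was Retnlg, at 18828 ± 3509, 6709 ± 857 and 3053 ± 349. S100a9 and Mmp8 also fell in CD22+ cells, from a mean of 19.0 to 2.87 (log2 difference -2.46, adjusted p = 0.0251) and from 34.8 to 4.98 (-2.71, adjusted p = 0.0014), and Ltf read 32.6 in a4b7+ and 13.5 in CD22+ cells (adjusted p = 0.116). Cxcr2 and Ngp rose, from 780.3 to 1772 and from 31.6 to 143. Of the defining neutrophil genes, S100a8 was at 0 in all a4b7+ libraries and Ly6g averaged 2.93 in them. The part of these neutrophil-associated genes in the receptor differences was not tested. The eosinophil markers, of which 3 of 6 were called lower in a4b7- CD22- and 5 in CD22+ cells (against 4.35% and 6.39% of all tested genes), summed to 60328 to 74282, 41859 to 47616 and 30224 to 32320 in the 3 subsets, with Ccr3 at 25121 ± 2868, 15187 ± 821 and 10773 ± 550 and Siglecf at 7534 ± 449, 7827 ± 566 and 7340 ± 370, and their part in the receptor differences was likewise not tested. Of the other lists, 6 of 7 mast cell markers had a mean of 10 or less in each subset. None of the B cell, plasma cell, epithelial or Paneth cell markers was called in any comparison. The 5 B and plasma cell markers summed to 3338 to 6965, 2461 to 7258 and 3247 to 7392 in the 3 subsets. The 8 epithelial and Paneth cell markers summed to 2123 to 4772, 1440 to 3089 and 1149 to 5551. All 8 estimates of the latter were below 0 between a4b7- CD22- and a4b7+ cells (median -0.59). An unadjusted p under 0.05 was seen for 0, 1 and 2 of the 8 in the 3 comparisons, all higher. The part of these cells in the receptor differences was not tested. Of 4 T cell markers 1 was called lower in a4b7- CD22- than in a4b7+ cells, where 3 had an unadjusted p under 0.05, all lower, with a median log2 difference of -0.89. Between CD22+ and a4b7- CD22- cells limma called 0 of these 4, with all 4 estimates above 0 and 2 at an unadjusted p under 0.05.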

How the data were processed

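The deposited table holds 1 value per gene and library. By the submitters' processing notes, the authors trimmed reads with Trimmomatic 0.39, pseudoaligned them with kallisto 0.46.1 against the mouse genome build GRCm38 (mm10) and scaled the estimated counts with DESeq2 1.38.2, so the deposited values are a normalized signal and not raw counts. Libraries were made from 3 ng of total RNA with a stranded total RNA kit. Total RNA retains noncoding transcripts, and scaling assumes that most genes do not change. The low values were not whole multiples of 1 read (33.5% to 62.3% within 5% of one per library), so no count model was used and depth is known only approximately.

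The 8 receptor genes and all gene lists were chosen with earlier results of these data known. Groups were taken from the GEO labels. Genes with a mean above 10 were tested with limma 3.58.1 (trend, R 4.3.3) on log2(value + 1) over all 12 libraries, with Benjamini-Hochberg adjustment, and a call needed both an adjusted p no higher than 0.05 and a change of 1.5-fold or more. The fold change understates differences of low genes. Ratios used two-sided exact permutation tests adjusted over 9 tests. The limma fit was also run on simulated data with known changes, whose outcome is not given here. Of 36047 identifiers, 35968 matched GENCODE M21, which gave positions and exon lengths, promoter windows came from RefSeq (GRCm38.p6, 7 of the 8 receptors matched), and transcripts were compared with BLAST 2.17.0. Besides the 8 receptors, the text names up to 5 called genes per list by size of change, the 3 genes most correlated with each receptor and the sort markers. The comparison of C5ar2 with Tmem38b, and the naming of Pla2g4a, Cyp4f18, Lpcat2, Ltb4r2, Gnai2, Gnai3 and single marker genes, were added after their values were seen.

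The labels number the libraries 1 to 4 within each subset and do not say whether equal numbers share mice, so p-values measure the spread between these pools. With subset means removed, same-numbered libraries correlated at 0.135 to 0.203 between CD22+ and a4b7- CD22- cells, a range that overlaps with those of the other 2 comparisons, given below. Differently numbered libraries were not compared in this way, so these values cannot show whether equal numbers share mice. Alternatives were other pseudocounts, filters, scalings and thresholds, a fit without trend, a fit to the 2 subsets compared, a replicate block, and leaving out each library. A count test was not run because no counts were analysed here.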

Additional observations from a re-analysis of the deposited data

Results flagged for a closer look

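In 5 of 83 groups of 4 libraries, 1 library stood apart from the other 3 by Dixon's test at its 95% level. Chance gives about 1 in 20 such groups. Of these, 3 concern receptors at the limit of detection: Fpr1 read 4.25 normalized counts in CD22+ replicate 2, Hrh4 read 7.03 in a4b7+ replicate 2, and Hrh4 read 1.35 in CD22+ replicate 2. In each case the other libraries of the subset were near or at 0. Ccrl2 read 12105 in a4b7+ replicate 1, above the other a4b7+ libraries, and Lpcat1 read 346.7 in a4b7+ replicate 2. Lpcat1 was still below all libraries of the other subsets there, and Ccrl2 above them.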

How the results depend on the processing

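The calls of C3ar1 and C5ar1 between each other subset and a4b7+ cells kept their sign and passed both thresholds under all 22 alternatives run, with log2 differences of -3.16 to -2.83 and -2.90 to -2.50 for C3ar1 and of -3.98 to -2.74 and -3.60 to -2.77 for C5ar1. C5ar2 was called between a4b7- CD22- and a4b7+ cells under all 22 (-1.68 to -1.06), but between CD22+ and a4b7+ cells it was also lost with no filter (-0.91, adjusted p = 0.0605), with no trend (-0.91, adjusted p = 0.083) and with libraries set to equal totals (-0.75, adjusted p = 0.0706). Equal totals put the median of all genes at 0.097, 0.171 and 0.061 in the order a4b7- CD22- versus a4b7+, CD22+ versus a4b7+ and CD22+ versus a4b7- CD22-. Relative to that median Ltb4r1 read -0.63 and C5ar2 -0.92 between CD22+ and a4b7+ cells, while the unadjusted -0.46 of Ltb4r1 fell short of 1.5-fold. Ptafr turned from -0.15 to 0.01, which is -0.16 relative to that median, and to 0.18 with quantile normalization, where the median of all genes was 0.026. Between CD22+ and a4b7+ cells the receptors called were 2 with equal totals, and 2 to 4 when 1 library was left out (2 without a4b7+ replicate 1). In the other comparisons they stayed at 3 and 0. Over all genes 1228, 1829 and 92 were called. Leaving out 1 library gave 1116 to 1227, 1654 to 1827 and 64 to 93, the adjusted p alone gave 2265, 3223 and 164, and no trend gave 54 between CD22+ and a4b7- CD22- cells. With equal totals, 61.9%, 68.7% and 47.6% of called genes were higher, against 45.9%, 46.7% and 34.8%. The replicate block changed no receptor call (1254, 1843 and 100 genes called, with 3, 4 and 0 receptors), and of the 17 other pathway genes fitted again with it, Cfp alone changed its call. Same-numbered libraries correlated at 0.043 to 0.137 between a4b7- CD22- and a4b7+ cells and at -0.0586 to 0.182 between CD22+ and a4b7+ cells. No ratio test passed after adjustment under the settings run, where the smallest p is 0.0286 with 4 against 4 libraries and 0.0571 with 4 against 3. At these values a difference in 1 ratio alone could not pass the adjustment. Leaving out 1 library moved the C5ar2 to C5ar1 difference from 1.21 to 2.59, 2.29 to 2.7 and -0.16 to 1.22. The cause of these changes was not tested. Depth limits Fpr1 and Hrh4, whose values rest on a few reads, and Fpr2 to a lesser degree.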
